A study of Mus musculus with 8 samples.

Results

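The Pde4 genes encode phosphodiesterases that hydrolyse cyclic AMP (cAMP). Symbols of the pattern Pde4a to Pde4d were looked up in the deposited counts of brain mRNA 3′ ends, and 3 of them, Pde4a, Pde4b and Pde4d, were found among 10060 genes. Pde4c was not analysed here. All 3 were listed in both deposited tables and passed the filter on low counts in both. The libraries came from total brain of untreated mice on postnatal day 50, of which 3 were wild type and 5 carried Cstf2 D50A. Cstf2 encodes the cleavage stimulation factor subunit that binds RNA downstream of a cleavage site, and D50A exchanges an aspartate for an alanine in its RNA recognition motif. Both genotypes were littermates of a colony on the C57BL/6NCrl background, to which it had been backcrossed for 4 generations. The sources used here do not give the sex of the animals. The series asks whether this exchange alters where transcripts end. Pde4b was chosen by its site usage in these same libraries, which DESeq2 called different between the genotypes, so all its comparisons between genotypes are given as description, with no p-value. Pde4a and Pde4d were taken by name, with earlier results of these data known, and their tests are given. Tissue markers also differed between the libraries, as given below, and these tests do not adjust for that.

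cAMP is made by adenylyl cyclases under the control of G protein-coupled receptors and acts through protein kinase A, the EPAC exchange factors and cyclic nucleotide-gated channels. Phosphodiesterases end the signal, and PDE4 enzymes, which are specific for cAMP, account for much of this activity in brain. Their genes are the mammalian relatives of the fly learning gene dunce, and PDE4 is the target of rolipram. A gene with several cleavage sites in its last exon can make transcripts with the same protein and a shorter or longer 3′ untranslated region, while a site in an upstream exon can change the end of the protein.

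Counts of a proximal (pA1) and a distal (pA2) site, both in the 3′-most exon, form the first deposited table. The second sets an upstream exon against the whole 3′-most exon. On the mm9 build the proximal and distal sites of Pde4b lie at positions 102278409 and 102279864, 1455 bases apart. Those of Pde4a lie at 21016050 and 21017692, 1642 bases apart, and those of Pde4d at 110746172 and 110750894, 4722 bases apart. The files name no chromosome, and the genes are given here without one. The sites of Pde4d lie further apart than those of 94.0% of the 7876 pairs tested, whose median distance was 626 bases, while Pde4b and Pde4a stand above 69.7% and 72.8% of pairs.

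Pde4b transcripts ended mostly at the proximal site in wild-type brain and were split between both sites in 4 of the 5 mutants. The distal site held 6.94%, 4.01% and 22.4% of the reads of both sites in wild type 1, 2 and 3. In mutant 1 to 5 it held 49.9%, 46.7%, 32.1%, 58.1% and 15.8%. The genotypes overlapped: mutant 5 lay below wild type 3, and the other mutants lay above all wild types. The means were 11.1 ± 9.87% (SD, n = 3) and 40.5 ± 16.7% (SD, n = 5), a difference of 29.4 percentage points. Counting error was smaller than the spread between animals: the Wilson 95% interval ran from 2.75% to 5.81% in wild type 2, from 18.9% to 26.3% in wild type 3, from 12.8% to 19.4% in mutant 5 and from 55.0% to 61.2% in mutant 4. These intervals cover counting error only, and they treat each read as independent. The reads carry no molecular identifiers, so repeated reads of a molecule would make the intervals too narrow. In edgeR's fit over all pairs the log2 change of distal against proximal reads was 2.69 (SE 0.757). Without wild type 3 it was 3.59, and without mutant 5 it was 3.06. In bulk tissue, a shift within cells and a change in the number of cells that use a site cannot be told apart.

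**Figure D1:**
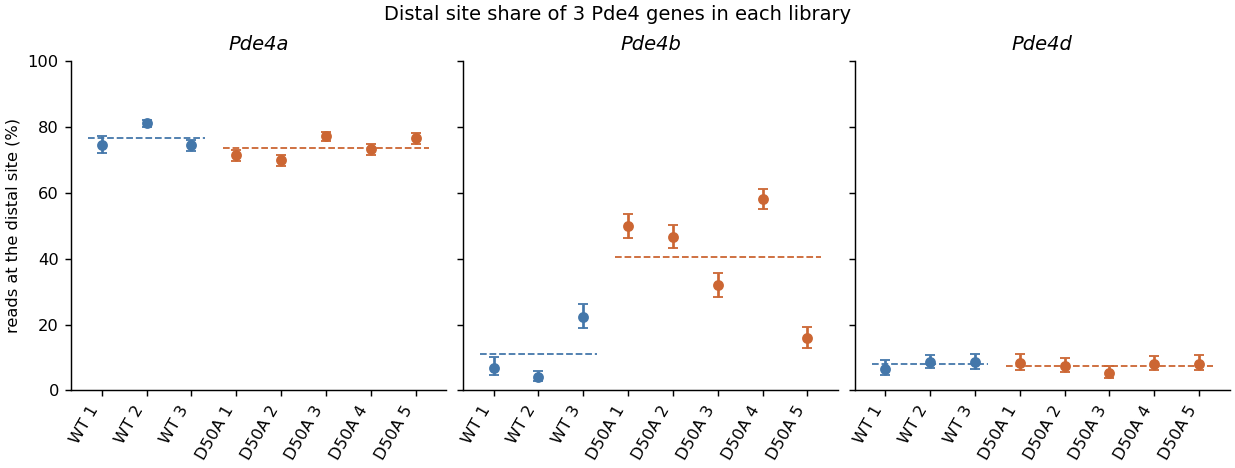
Share of reads at the distal site (percent of the reads at both sites) in each library for Pde4a, Pde4b and Pde4d; points are libraries with Wilson 95% intervals, dashed lines are genotype means, blue is wild type (WT) and orange is Cstf2 D50A. Pde4b runs from 4.01% to 58.1% over the 8 libraries, while Pde4a stays between 69.9% and 81.1% and Pde4d between 5.45% and 8.55%.

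Within this pair of sites, the difference lay in reads at the distal site of Pde4b, while its proximal site had about the same level in all animals. Levels are given as CPM, reads scaled to a common library size of the table with TMM factors. The proximal site had 33.0, 37.2 and 30.9 CPM in wild type 1 to 3 and 33.0, 33.5, 33.7, 28.1 and 34.9 CPM in mutant 1 to 5. The distal site had 2.46, 1.55 and 8.92 CPM in wild type 1 to 3, from 22, 26 and 109 reads. In mutant 1 to 5 it had 32.8, 29.3, 15.9, 39.1 and 6.55 CPM, from 348, 364, 200, 550 and 73 reads. Proximal CPM thus spanned a narrow range that both genotypes shared, and distal CPM differed from animal to animal. Mutant 4 had the highest distal and the lowest proximal CPM, and mutant 5 again lay between the wild types.

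The proximal means were 33.7 ± 3.20 CPM (SD, n = 3) in wild type against 32.7 ± 2.61 CPM (SD, n = 5) in mutants, and the distal means 4.31 ± 4.02 and 24.7 ± 13.2. The ratio of the distal means was 5.74, and wild type 3 set much of its size: without this library it was 12.3, against 4.35 to 6.79 without any one of the others. Set among all 7876 pairs, the proximal difference on the log2 scale (-0.05) was smaller in size than in all but 8.88% of them. The distal difference (2.66) was larger in size than in 99.8%. These ranks describe the pair that was picked and are no test. The spread over all 8 libraries (SD of log2 CPM) was 0.119 at the proximal site and 1.74 at the distal one, beside medians of 0.353 and 0.359 over all pairs.

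**Figure D2:**
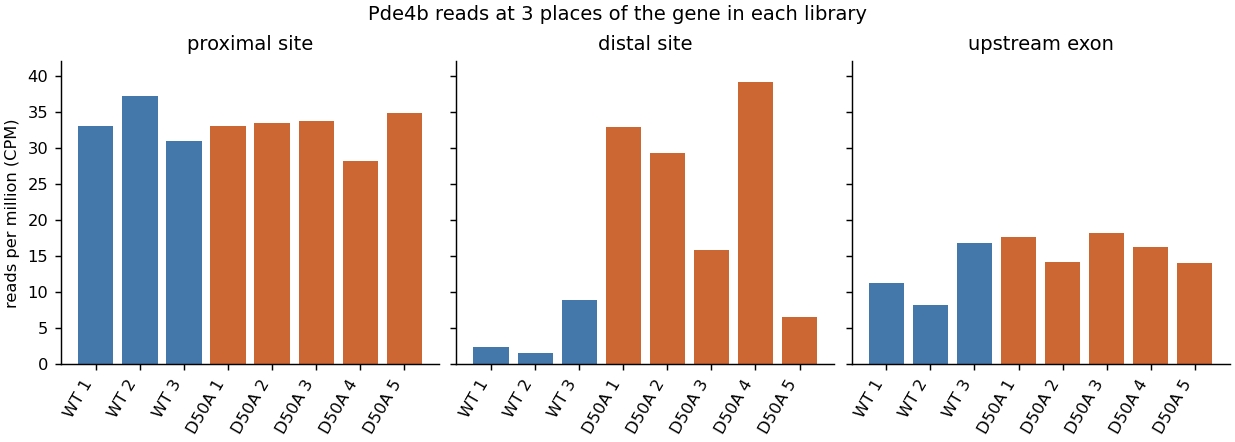
Scaled read counts (CPM) of Pde4b at the proximal site, the distal site and in the upstream exon, 1 bar per library, blue for wild type (WT) and orange for Cstf2 D50A. Proximal bars lie between 28.1 and 37.2 CPM in all libraries, and distal bars between 1.55 and 39.1 CPM; upstream values are scaled within their own table.

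Pde4b also ended in an upstream exon, with a share that differed little between the genotypes. The upstream exon held 18.01%, 13.0% and 23.5% of all Pde4b reads in wild type 1 to 3, and 16.4%, 14.0%, 20.8%, 15.2% and 19.7% in mutant 1 to 5. The mutants all lay within the wild-type range. The means were 18.15 ± 5.27% and 17.2 ± 2.93% (SD, n = 3 and 5), and edgeR's log2 change of 3′-most exon against upstream reads was 0.07 (SE 0.287). This does not show that the genotypes were alike. The sign of this small change is not fixed, since it was -0.03 when the site columns were TMM scaled and -0.19 without wild type 3.

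All reads of a gene can be divided between the upstream exon, both sites of the 3′-most exon and the rest of that exon, because the 3′-most exon count holds the reads of both sites. For Pde4b the proximal site took 69.9%, 78.4% and 57.3% of all reads in wild type 1 to 3, and the distal site 5.21%, 3.27% and 16.5%. In mutant 1 to 5 the proximal site took 40.5%, 43.8%, 51.3%, 34.5% and 64.4% and the distal site 40.2%, 38.4%, 24.2%, 47.95% and 12.1%. The rest of the exon held 2.35% to 6.87% of the reads in any library. These parts sum to 100% in each library, so a higher distal share lowers the proximal one without fewer proximal reads.

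**Figure D3:**
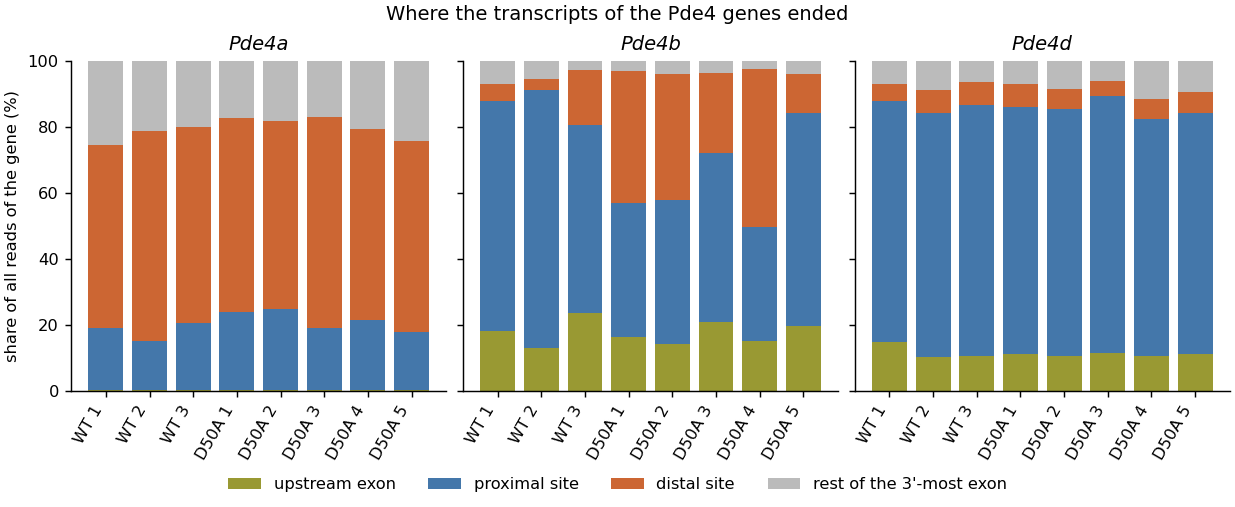
Share of all reads of each Pde4 gene (percent, stacked to 100) that ended in an upstream exon, at the proximal site, at the distal site or elsewhere in the 3′-most exon, 1 bar per library (WT, wild type). For Pde4b the distal part spans 3.27% to 47.95% and the upstream part 13.0% to 23.5%; for Pde4a the upstream part, 0.093% to 0.28%, is too thin to see.

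The summed level of both Pde4b sites was higher in the mutants of this set, by about the amount of the extra distal reads. Both sites together had 35.4, 38.8 and 39.9 CPM in wild type 1 to 3 and 65.9, 62.8, 49.6, 67.2 and 41.4 CPM in mutant 1 to 5. All mutants lay above all wild types, though mutant 5 by little. This was so in 2.45% of all 7876 pairs, and a further 2.31% had all mutants below all wild types. edgeR's log2 change was 0.59 (SE 0.176), and it was between 0.53 and 0.69 when any one library was left out. In the second table, which counts the same 3′-most exon reads again and adds the upstream exon, Pde4b had 62.8, 63.5 and 71.4 CPM in wild type and 108, 102, 87.4, 107 and 71.2 CPM in mutants. Here mutant 5 fell just below wild type 3, so that the genotypes overlapped, and the log2 change was 0.53 (SE 0.153). The upstream exon alone had 12.1 ± 4.33 CPM in wild type (SD, n = 3) and 16.1 ± 1.91 CPM in mutants (SD, n = 5). The genotypes overlapped in it too.

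Pde4d, which encodes a PDE4 enzyme with many long and short isoforms, ended mostly at the proximal site in both genotypes, which took 73.1% to 76.1% of all its reads in wild type and 71.8% to 77.8% in mutants. Of the reads of both sites, the distal one held 6.67%, 8.52% and 8.55% in wild type 1 to 3 and 8.24%, 7.51%, 5.45%, 7.97% and 8.16% in mutant 1 to 5. The genotypes overlapped, and 7 of the 8 Wilson intervals contain 7.91%, the wild-type mean, the exception being mutant 3 (3.91% to 7.56%). edgeR gave a log2 change of -0.10 (SE 0.231, 95% interval -0.62 to 0.41, adjusted p = 0.848). The upstream exon held 14.8%, 10.1% and 10.4% of Pde4d reads in wild type and 10.5% to 11.6% in mutants, with a log2 change of 3′-most exon against upstream reads of 0.09 (SE 0.24, edgeR adjusted p = 0.886). Neither change passed the test, and both turned sign when a single library was left out.

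Pde4d was also the steadiest of the 3 genes in level. Both sites together had 52.0, 47.7 and 53.6 CPM in wild type 1 to 3 and 48.1, 47.2, 48.1, 45.5 and 51.6 CPM in mutants. Its SD over the 8 libraries, 0.0822 on the log2 scale, was lower than that of all but 1.46% of genes in the table. The log2 change was -0.09 (SE 0.108, 95% interval -0.33 to 0.15, edgeR adjusted p = 0.654).

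Pde4a, whose product is an abundant PDE4 enzyme of brain, ended mainly at the distal site in all 8 libraries. The distal share was 74.7%, 81.1% and 74.4% in wild type 1 to 3 and 71.4%, 69.9%, 77.2%, 73.2% and 76.6% in mutant 1 to 5. Wild type 2 was the highest and the genotypes overlapped. The log2 change was -0.25 (SE 0.206, 95% interval -0.71 to 0.21, edgeR adjusted p = 0.554), which did not pass the test. It was -0.06 without wild type 2 and -0.47 with the site columns TMM scaled. Upstream ends were rare, with 4 to 7 reads per library, and their log2 change of 0.54 (edgeR adjusted p = 0.629) rests on these few reads.

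The level of Pde4a turned on wild type 1. Both sites together had 118, 265 and 237 CPM in wild type 1 to 3 and 237, 241, 283, 215 and 237 CPM in mutant 1 to 5, so that wild type 1 alone stood below all others. The log2 change was 0.23 (SE 0.231, edgeR adjusted p = 0.581), and it was -0.06 without wild type 1. Pde4a held 57.5% to 75.4% of the reads of the 3 Pde4 genes in wild type and 65.6% to 74.3% in mutants. Pde4b held 11.02% to 17.2% and 12.5% to 20.5%. Each read marks 1 transcript end, so no division by length was made in these shares.

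Neither Pde4a nor Pde4d was called by edgeR in usage or level in either table, where edgeR called 0% of all pairs. In site usage within the exon, edgeR called 0 of 7876 pairs, with 1018 at an unadjusted p under 0.05 (12.9%), while DESeq2 called 22 (0.279%) and limma called 0. That Pde4b is among the 22 is no result, since the gene was chosen by this usage in these same libraries. In usage between exons, edgeR called 0 of 6001 pairs, with 841 (14%) at an unadjusted p under 0.05, while DESeq2 called 5 (0.0833%) and limma 0. In level, edgeR called 0 in both tables, with 1129 (14.3%) and 904 (15.1%) at an unadjusted p under 0.05, while DESeq2 called 26 (0.33%) and 0; limma was run on usage alone. The tables held 9616953 to 17530761 and 7075383 to 13145966 reads per library. Over all pairs the median log2 change in usage within the exon was 0.115 toward the distal site, and scaling the site columns by TMM moved it to -0.11. The change of Pde4b was then 2.46.

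The pairs whose pattern over the 8 libraries was most like that of Pde4b were Slc25a22, Ccnyl1, Ddx19b, Ppp1r15b and Cnn3. Likeness was the root mean square difference between the centred log2 ratios of distal to proximal reads, and it was 0.257 to 0.308 for these 5, beside a median of 1.65 over all pairs compared. A pair with the same ratio in all libraries would have 1.69, the spread of Pde4b itself, so this median mostly reflects that spread. Slc25a22, which encodes a mitochondrial glutamate carrier, had distal shares of 59.1%, 51.8% and 85.6% in wild type 1 to 3 and 96.6%, 95.6%, 92.6%, 97.4% and 75.5% in mutant 1 to 5. Ppp1r15b, a regulatory subunit of the phosphatase of eIF2α, had 57.4%, 37.3% and 83.7% in wild type and 93.8%, 91.7%, 87.5%, 92.5% and 75.3% in mutants. In both, as in Pde4b, mutant 5 lay between wild type 1 and wild type 3.

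Ddx19b, an RNA helicase of mRNA export, had 32.1%, 13.6% and 64.0% in wild type and 80.5%, 82.8%, 71.8%, 83.4% and 52.9% in mutants. Ccnyl1, a cyclin Y-like gene, had 25.8%, 17.6% and 50.9% in wild type and 52.9% to 83.8% in mutants, the one of the 5 in which the genotypes did not overlap, with all mutants above all wild types as in 2.53% of all pairs. The gap was narrow, since mutant 5, at 52.9%, had only 8 proximal and 9 distal reads of Ccnyl1. Its proximal level was not as steady as that of Pde4b, with means of 2.12 CPM in wild type and 1.02 CPM in mutants. Cnn3, the actin-binding calponin 3, ended almost always at the proximal site, with 0.266% to 3.78% distal reads in wild type and 1.97% to 14.0% in mutants. Ccnyl1 rests on few reads, with 6 to 96 at its distal site, as does Slc25a22, with 9 to 27 at its proximal one, and Cnn3, with 3 and 4 distal reads in wild type 2 and 1. The sites of these pairs lie 249 to 4826 bases apart. They were chosen for their likeness in these libraries, so nothing is tested by it.

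**Figure D4:**
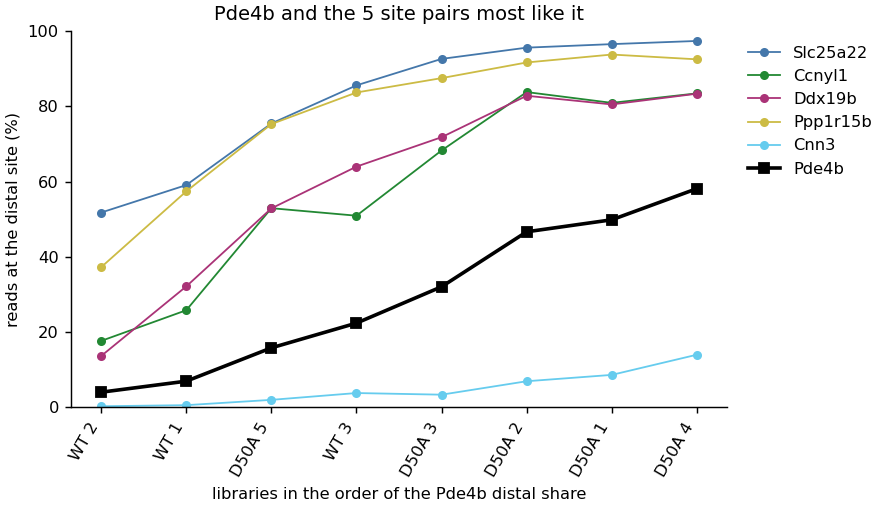
Share of reads at the distal site (percent) of Pde4b (black squares) and of the 5 pairs most like it (coloured circles) in each library, with the libraries in the order of the Pde4b share (WT, wild type). Pde4b runs from 4.01% in wild type 2 to 58.1% in mutant 4, and in all 6 genes wild type 2 is lowest and mutant 5 lies below mutant 1 to 4.

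The libraries also differed in markers of brain regions and cell types, and some of these differences ran alongside the distal share of Pde4b. The mean level of the 8 measured of 12 cerebellar granule cell markers was 8.26, 7.98 and 7.86 log2 CPM in wild type 1 to 3, 5.59 to 5.62 in mutant 1 to 4 and 8.01 in mutant 5. Summed, they had 2230 to 3060 CPM in wild type against 637 to 2519 CPM in mutants. Thus the 4 mutants with the highest distal shares of Pde4b were those with low cerebellar markers. The 4 measured of 8 Purkinje cell markers gave 7.46 to 7.76 in wild type, 5.94 to 6.02 in mutant 1 to 4 and 7.43 in mutant 5, with sums of 1023 to 1367 CPM and 426 to 1005 CPM. The distal share was 4.01% to 22.4% in the 4 libraries with high granule cell markers and 32.1% to 58.1% in the 4 with low ones.

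The 4 measured of 11 endothelial and pericyte markers gave 5.14, 5.39 and 5.76 log2 CPM in wild type 1 to 3 and 6.15, 5.94, 5.77, 6.20 and 5.52 in mutant 1 to 5, with sums of 260 to 452 CPM and 296 to 622 CPM. Ordered by this mean, the libraries stand as they do by the distal share of Pde4b, apart from wild type 1 and 2, which change places. Ordered by the sum, wild type 3 (452 CPM) and mutant 3 (388 CPM) change places instead. The 10 measured of 12 cortical and hippocampal markers gave 5.41, 6.16 and 6.35 in wild type and 6.57, 6.46, 6.42, 6.62 and 6.15 in mutants, an order that differs from that of Pde4b in the 3 lowest libraries. Their sums did not follow the order of Pde4b. They were 3411, 6992 and 4884 CPM in wild type 1 to 3 and 5216, 5348, 6409, 5122 and 6373 CPM in mutant 1 to 5. No measured marker was at 0 in any library. Over all pairs, the distal-to-proximal log2 ratio had a median of 0.112, 0.0493 and 0.208 in wild type 1 to 3 and 0.37, 0.349, 0.225, 0.286 and 0.112 in mutant 1 to 5, so mutant 5 stood with the wild types there as well. The part of tissue content or of this library-wide shift in the Pde4b result was not tested.

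**Figure D5:**
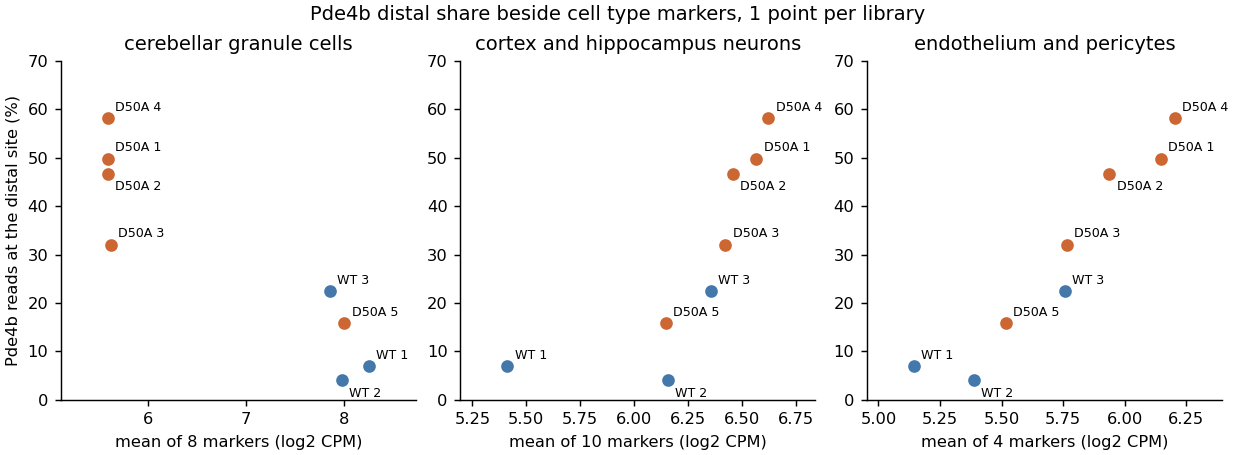
Share of Pde4b reads at the distal site (percent) against the mean log2 CPM of markers of cerebellar granule cells, of cortical and hippocampal neurons, and of endothelium and pericytes, 1 point per library, blue for wild type (WT) and orange for Cstf2 D50A. Mutant 1 to 4 stand apart at 5.59 to 5.62 for granule cell markers, and mutant 5 stands with the wild types at 8.01.

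The 7 general neuronal markers gave 8.83, 9.19 and 9.28 log2 CPM in wild type 1 to 3 and 9.52, 9.47, 9.36, 9.505 and 9.27 in mutant 1 to 5. This is the library order of the Pde4b distal share, apart from wild type 1 and 2 and mutant 1 and 4, which change places within each pair. The summed neuronal markers departed further from that order. They had 4695, 5412 and 5989 CPM in wild type 1 to 3 and 7382, 6817, 5936, 7211 and 5359 CPM in mutant 1 to 5. The mean of 11 oligodendrocyte lineage markers lay between 6.21 and 6.57 log2 CPM in wild type and between 6.41 and 6.72 in mutants, and apart from wild type 1 (6.57) its order was that of the Pde4b distal share too. The summed oligodendrocyte markers did not follow the order of Pde4b. They had 5144, 4337 and 4119 CPM in wild type 1 to 3. In mutant 1 to 5 they had 3895, 3951, 3514, 4275 and 4332 CPM. The 5 markers of this lineage measured in the second table averaged 8.89 for wild types against 8.82 for mutants on the log2 scale, with overlap. The part of the neuronal or the oligodendrocyte list in the Pde4b result was not tested. The 5 astrocyte markers lay between 8.82 and 8.96 and between 8.64 and 8.88. The 5 microglia markers gave 5.03 to 5.45 and 5.01 to 5.17 and the 7 striatal markers 5.39 to 5.76 and 5.45 to 5.94. Choroid plexus and blood markers, 4 in number, gave 8.34 to 8.97 and 8.29 to 8.84. In each of these means the genotypes overlapped, while the summed astrocyte markers, 4111 to 4431 CPM in wild type against 3392 to 3849 CPM in mutants, did not.

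Of 91 measured genes that make, bind or carry on the cAMP signal, edgeR called none in site usage within the exon or in level, and DESeq2 called none in either. At an unadjusted p under 0.05, the distal share pointed up in 8 and down in 1 (8.67% and 4.25% over all pairs), and 15 pointed up and 6 down in level (7.29% and 7.05%). In the order in which the 7 lists follow here, usage pointed up in 2, 1, 1, 1, 1, 2 and 0 members, and the 1 that pointed down was in the first list. In level, 2, 1, 1, 1, 2, 4 and 4 pointed up and 1, 0, 1, 2, 2, 0 and 0 down. The smallest edgeR adjusted p in these lists was 0.38 in usage and 0.343 in level, so none of these members passed. Over the 91 genes the median log2 change was 0.127 in usage and 0.175 in level, beside 0.115 and 0.00687 over all pairs. Of 55 genes of these lists tested in the second table, edgeR and DESeq2 also called 0 in usage and in level. Among edgeR and DESeq2 fits, calls appeared only when a library was left out, and there beside many others. Without mutant 5, edgeR called Bdnf, a neurotrophin gene under CREB control, higher (log2 change 1.42, adjusted p = 0.0495) and Pkib, a protein kinase A inhibitor, lower (-1.45, adjusted p = 0.0135) in the first table, and Akap7 lower in the second (-0.66, adjusted p = 0.0366). That fit called 17 higher and 51 lower of all pairs in the first table, and 21 and 44 in the second. In that fit all mutants had low and all wild types high cerebellar markers. Without wild type 3, edgeR called the adenylyl cyclase Adcy9 toward the 3′-most exon (2.71, adjusted p = 0.0499), among 121 pairs called in this direction. Over all settings these adjusted p ran up to 0.743 for Bdnf and Pkib, 0.719 for Akap7 and 0.754 for Adcy9, and with all libraries in edgeR they were 0.343, 0.343, 0.327 and 0.337. These 4 genes were named after their values were seen.

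On the side of synthesis and receptors, 11 adenylyl cyclase and G alpha genes had median log2 changes of 0.486 in usage and 0.29 in level. The most read were Gnao1, Gnai2 and Adcy1. The distal share of Adcy1, a calcium-stimulated cyclase, was 24.4 ± 9.25% in wild type (SD, n = 3) against 32.3 ± 10.9% in mutants (SD, n = 5), that of the G protein gene Gnao1 72.3 ± 2.16% and 74.9 ± 3.26%, and that of Gnai2, whose product inhibits cyclases, 63.7 ± 2.11% and 64.1 ± 2.72%. The level of Adcy1 was 7.96 ± 0.103 and 7.60 ± 0.208 log2 CPM (edgeR adjusted p = 0.343). The 17 receptor genes had medians of 0.104 and 0.175. Gabbr2, a GABA-B receptor subunit, had a distal share of 65.2 ± 4.24% and 72.2 ± 4.39%, its partner Gabbr1 1.76 ± 0.150% and 1.89 ± 0.212%, and the adenosine receptor Adora1 15.9 ± 0.858% and 17.15 ± 0.736%.

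Other phosphodiesterases, 8 in number, had medians of 0.123 in usage and 0.127 in level. Pde8b, a cAMP-specific enzyme insensitive to rolipram, had a distal share of 32.3 ± 13.8% in wild type (SD, n = 3) against 44.5 ± 10.9% in mutants (SD, n = 5; log2 change 0.80, SE 0.456, edgeR adjusted p = 0.432). Pde7b, another cAMP-specific enzyme, ended at the distal site in 99.1 ± 0.545% and 99.7 ± 0.129% of reads. Its level was 5.65 ± 0.88 and 7.08 ± 0.64 log2 CPM, with the genotypes overlapping (log2 change 1.36, SE 0.434, edgeR adjusted p = 0.343). Pde1a, a calmodulin-dependent enzyme, had 98.3 ± 0.365% and 98.4 ± 0.306% distal reads.

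Among 7 protein kinase A subunits and inhibitors, medians were 0.162 in usage and 0.0520 in level. The regulatory subunit Prkar1a had a distal share of 96.9 ± 0.722% and 98.0 ± 0.626% (SD, n = 3 and 5; edgeR adjusted p = 0.38), Prkar1b 99.9 ± 0.0326% and 99.9 ± 0.0174%, and the inhibitor gene Pkia 99.0 ± 0.252% and 99.1 ± 0.162%. Of 16 A-kinase anchoring proteins and known partners of PDE4, which place the enzyme near its substrates, medians were 0.0759 and 0.0878. The distal share was 91.5 ± 1.11% and 92.5 ± 1.53% for Arrb1, the beta-arrestin that brings PDE4 to receptors, 24.99 ± 4.31% and 28.5 ± 3.62% for Akap11, and 32.3 ± 0.942% and 35.1 ± 3.77% for Akap2. None of these differences passed the test.

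For 19 cAMP effectors and CREB pathway genes the medians were 0.101 in usage and 0.0998 in level. Rapgef3, which encodes EPAC1, had a distal share of 98.7 ± 0.342% and 99.3 ± 0.264% (SD, n = 3 and 5), the phosphatase regulator Arpp19 15.6 ± 3.75% and 16.7 ± 3.20%, and Crtc1, a CREB coactivator, 97.7 ± 0.453% and 98.1 ± 0.216%. For 13 CREB-responsive genes the medians were 0.0412 and 0.307. Vgf, a neuropeptide precursor, stood at 6.64 ± 0.867 and 7.53 ± 0.221 log2 CPM, Egr1 at 6.63 ± 1.42 and 7.53 ± 0.582, and Nr4a2 at 7.20 ± 0.59 and 7.79 ± 0.337, with edgeR adjusted p of 0.343, 0.577 and 0.351. The genotypes overlapped in all 3. Among the 3 most read members of each list, Gnao1, Gabbr2 and Rapgef3 had all mutants above all wild types in level. This was so in 2.45% of all pairs. Mean levels in wild type and mutants were 9.61 and 10.03 log2 CPM for Gnao1, 7.36 and 7.94 for Gabbr2, and 6.90 and 7.25 for Rapgef3. The edgeR adjusted p were 0.351, 0.343 and 0.343. In the other most read members the genotypes overlapped in level.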

How the data were processed

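QuantSeq 3′ mRNA-Seq REV libraries were made from total RNA of 8 brains, per the labels' protocols; priming on the poly(A) tail makes a read mark a transcript end. Tools listed in the submitters' processing notes are STAR 2.5, HTSeq 0.6.0 and FastQC 0.11.3, with mm9 as build and no roles. Raw counts were deposited for every site in every library and were used as given. The sources used here do not say how sites were picked, internally primed reads filtered or strand used, so reads of overlapping genes cannot be separated. Columns were assigned to samples by the library code in the titles, and 0 value columns were unused. Replicate numbers follow the record order and pair nothing. Nothing but the animal codes says the samples are separate animals.

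Pairs averaging 20 or more reads per library over both sites, with 10 or more reads at each site in all, were tested. For usage, both counts of a pair entered edgeR's quasi-likelihood fit with 1 term per library, and the site by genotype term was tested. For level, their sum was tested with TMM scaling. Each SE is the fitted change divided by the root of its F, and p-values were adjusted by Benjamini-Hochberg over all pairs, at a threshold of 0.05. Log2 ratios and log2 CPM add 0.5 to each count. limma 3.58.1, DESeq2 1.42.0 and edgeR 4.0.16 ran under R 4.3.3, and the scripts were tested on simulated data. Alternatives were DESeq2, limma, other scalings, filters and pseudocounts, and leaving out each library. Named were the Pde4 genes, the 3 most read members of each of 7 pathway lists, and the 5 pairs with 50 or more reads most like Pde4b. The members and lists were chosen with earlier results of these data known.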

Additional observations from a re-analysis of the deposited data

Results flagged for a closer look

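Of 66 sets of 5 mutant values examined, 8 held a library far from the others, where chance alone marks about 1 in 20. Many of these sets share reads, as the share and level of a gene do, so an excess over this rate was not tested. At the proximal site of Pde4b mutant 4 had 28.1 CPM, below the 33.0 to 34.9 CPM of the other mutants. In Pde4d the distal share of mutant 3 was 5.45%, and mutant 5 had 76.0 CPM in the 3′-most exon and 85.4 CPM with the upstream exon, above the other mutants. For Pde4a, mutant 1 had 0.623 CPM in the upstream exon, from 5 reads. Mutant 5 also stood apart in the level of Pde1a (6.48 log2 CPM) and Prkar1a (10.5 log2 CPM), both lowest there, and in the distal share of Nr4a2 (14.9%), highest there.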

How the results depend on the processing

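Of 413 alternative values, 388 kept their side of the threshold and their direction, or moved by less than the spread between replicates. DESeq2 called distal usage higher in 16 pairs and lower in 6, usage of the 3′-most exon higher in 4 and lower in 1, and 25 higher and 1 lower in level in the first table, where edgeR called 0. When 1 library was left out, edgeR's counts ran from 0 to 1 toward the distal site within the exon (1 without wild type 3), and from 0 to 171 for higher and 0 to 65 for lower usage of the 3′-most exon (121 and 40 without wild type 3, 171 and 65 without mutant 5). They ran from 0 to 17 higher and 0 to 51 lower in level in the first table, and from 0 to 21 and 0 to 44 in the second, the highest without mutant 5. The cause was not tested.

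The log2 change of Pde4b in usage within the exon was 2.06 to 3.59 when 1 library was left out and 2.46 to 2.76 under other settings; the ratio of its distal means was 4.35 to 12.3. That of Pde4a was -0.35 to -0.062 and -0.47 to -0.24. The change of Pde4d in usage within the exon ran from -0.22 to 0.0097 (without mutant 3) when 1 library was left out, and between exons from -0.11 (without wild type 1) to 0.21, with -0.011 under TMM scaling of the site columns. The change of Pde4a in level ran from -0.060 to 0.44 in the first table and from -0.090 to 0.40 in the second, below 0 only without wild type 1. No paired analysis was possible because the labels pair no samples. Depth limits the upstream exon of Pde4a, with 4 to 7 reads per library.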
